A study of Mus musculus with 6 samples.

Results

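The genes described here are the 9 that encode the MHC class II antigen presentation machinery: the peptide-presenting chains H2-Aa, H2-Ab1 and H2-Eb1, the invariant chain Cd74, the H2-M chains H2-DMa and H2-DMb1, the H2-O chains H2-Oa and H2-Ob, and the transactivator Ciita. They were taken by name from a table of 55401 Ensembl genes, and all 9 were present and had counts in each of the 6 RNA-seq libraries. The libraries were labelled as basophils sorted from wild-type (WT) mice and form set B and set A, with 3 libraries each. The mice came from an atopic dermatitis model in which the vitamin D analogue MC903 was put on both ears from day 0 to day 6, at 2 nmol in 10 µL of ethanol, and control mice received ethanol alone. The labels do not tell which set had MC903 and which had ethanol, and set B was put over set A in all fold changes. They name no strain, age or sex of the mice. The sample labels name blood and the series design names ear skin as the tissue. The gate took live CD45+ cells without lineage markers positive for CD49b and for FcεRIα or IgE. The protocol names Smart-seq2, which amplifies full-length cDNA from few cells, and calls the starting material pooled RNA, while the sample descriptions name 10x Genomics. The table has 1 column per library and no cells, and was read as bulk Smart-seq2. Which library type is right is not settled, and comparisons of level between genes by length hold only for full-length cDNA. Whether the 3 libraries of a set stand for separate animals is not stated. The p-values here thus rest on library-to-library spread alone, and that spread may be technical.

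Class II molecules present peptides from the endosome to CD4 T cells. The alpha and beta chains assemble on the invariant chain, which is then cut down to a short peptide held in the binding groove, and H2-M removes that peptide and edits what binds in its place. H2-O binds H2-M and restrains it. Ciita is a coactivator that does not bind DNA itself: it is recruited to the X and Y boxes in front of class II genes by RFX, CREB and NF-Y proteins, and it is the switch on which most class II transcription depends. B cells, dendritic cells and macrophages are the usual sources of these transcripts. How far mouse basophils transcribe class II genes themselves has been debated.

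The labelled cell type was checked first. Mcpt8, a granule protease that defines mouse basophils, was at 1173, 872 and 478 CPM (counts scaled to one common library total) in set B replicates 1, 2 and 3, and at 0.762, 0.681 and 1.28 CPM in set A replicates 1, 2 and 3. Fcer1a, the IgE-binding chain of the gate, had 10736, 5584 and 2681 counts in set B and 4, 0 and 0 in set A. These 2 defining basophil genes were at or near 0 in all 3 set A libraries, against their label. Not all basophil markers were: Hdc was at 685, 467 and 359 CPM in set B and at 38.0, 62.2 and 267 CPM in set A. Gata2 was at 42.8, 1.15 and 24.8 CPM in set B and at 0.109, 45.6 and 116 CPM in set A. Itga2, the CD49b of the gate, was at 14.0, 31.9 and 0 CPM in set B and at 0 throughout set A. Of 9 basophil markers tested, 8 had a fitted log2 fold change above 0 and 1 below. In 6 of the 9 every set B library lay above every set A library, beside 10.2% of all tested genes. The values below are thus values of the libraries labelled as basophils. In sorted bulk material a smaller share of class II positive cells and less class II RNA per cell cannot be told apart. Library totals ran from 49742321 to 63956911 counts in set B and from 46137963 to 55116567 in set A, far above the read yield that the protocol states.

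The regulatory sequence that class II genes share is shown first, because it is where Ciita acts. RefSeq promoter windows of 300 bases (build GRCm38.p6, 250 bases before to 50 after the start site) were used for 6 of the 9 genes, and are shown for the 5 of these that had 1 window, with H2-DMb2, the near copy of H2-DMb1. H2-Ab1 and Ciita had no window, and Cd74 was left out by choice. The 130 bases just before the start site are given 5′ to 3′ on the gene's own strand, and capitals mark a Y core (TGATTGG, which is a CCAAT box read from the other strand) or an X core (AGNAAC, then any 2 bases, then ATG).
H2-Aa (chr17:34287824-34287953, minus strand): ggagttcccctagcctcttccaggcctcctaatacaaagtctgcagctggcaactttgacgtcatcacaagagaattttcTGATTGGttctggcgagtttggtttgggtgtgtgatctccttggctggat
H2-Eb1 (chr17:34305737-34305866, plus strand): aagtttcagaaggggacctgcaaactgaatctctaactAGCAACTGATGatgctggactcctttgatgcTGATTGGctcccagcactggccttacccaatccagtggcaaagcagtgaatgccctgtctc
H2-DMb1 (chr17:34153061-34153190, plus strand): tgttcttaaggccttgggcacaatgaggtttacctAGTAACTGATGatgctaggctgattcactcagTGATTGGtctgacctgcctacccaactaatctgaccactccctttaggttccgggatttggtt
H2-DMb2 (chr17:34145119-34145248, plus strand): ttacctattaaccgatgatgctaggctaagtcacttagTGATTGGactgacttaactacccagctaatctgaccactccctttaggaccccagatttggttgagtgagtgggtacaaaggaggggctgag
H2-Oa (chr17:34092249-34092378, plus strand): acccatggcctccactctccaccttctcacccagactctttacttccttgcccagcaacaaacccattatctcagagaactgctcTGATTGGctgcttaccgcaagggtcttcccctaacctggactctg
H2-Ob (chr17:34238775-34238904, plus strand): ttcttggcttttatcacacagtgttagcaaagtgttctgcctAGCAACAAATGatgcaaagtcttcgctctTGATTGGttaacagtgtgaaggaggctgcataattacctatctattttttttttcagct
Both strands were searched, the cores do not overlap each other in these windows, and the letters were chosen with these sequences in view. The Y core stood in all 6 windows shown, against 7.82% of the 32851 promoter windows in the table. It began 50 bases before the start of H2-Aa, 61 before H2-Eb1, 63 before H2-DMb1, 92 before H2-DMb2, 45 before H2-Oa and 59 before H2-Ob. The X core stood in H2-Eb1, H2-DMb1 and H2-Ob, with 20, 21 and 18 bases between it and the Y core, against 0.895% of all windows. An X core followed within 40 bases by a Y core, both on the gene's strand, was found in 4 windows of the whole table (0.0122%): H2-Eb1, H2-DMb1, H2-Ob and H2-Eb2, all class II genes of chromosome 17. Neither H2-DMa window held a match to the Y or X letters. A match is a match of letters and not a measured binding site.

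Of the presenting chains, H2-Aa and H2-Eb1 had lower CPM in every set B library than in any set A library, without passing edgeR's test. H2-Aa (ENSMUSG00000036594), the alpha chain of the I-A molecule, was at 1519, 1104 and 1094 CPM in set B replicates 1, 2 and 3, and at 2154, 2703 and 1824 CPM in set A replicates 1, 2 and 3. Every set B library lay below every set A library. The log2 fold change was -0.95 (SE 0.23, unadjusted p = 0.00524, the 60th smallest of 9196 genes), and H2-Aa did not pass after adjustment (adjusted p = 0.508, edgeR's quasi-likelihood test with Benjamini-Hochberg adjustment).

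H2-Eb1 (ENSMUSG00000060586), the beta chain of the I-E molecule, was at 678, 379 and 379 CPM in set B and at 1529, 1074 and 776 CPM in set A. The sets again did not overlap, with set B replicate 1 and set A replicate 3 nearest to each other. The log2 fold change was -1.36 (SE 0.39, edgeR adjusted p = 0.508). Its partner H2-Ea, listed under the name H2-Ea-ps, had 0 counts in all 6 libraries. In mice of the b haplotype, C57BL/6 among them, this gene carries a promoter deletion and no I-E reaches the surface. The beta chain was thus read in 6 of 6 libraries and the alpha chain in 0.

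H2-Ab1 (ENSMUSG00000073421), which pairs with H2-Aa, was at 1692, 1751 and 1673 CPM in set B and at 1644, 3430 and 2396 CPM in set A. The set B values lay within 1.05-fold of each other, while those of set A spanned 2.09-fold, and set A replicate 1 was the lowest of all 6. The log2 fold change was -0.64 (SE 0.25, edgeR adjusted p = 0.694), and it was -0.33 without set A replicate 2.

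Cd74 (ENSMUSG00000024610), the invariant chain, had the highest level of the 9 genes and was among the 12 most abundant genes of every library. It was at 7354, 8915 and 7305 CPM in set B and at 6464, 8621 and 6329 CPM in set A. The ranges overlapped over most of their length, and the highest library of all was only 1.41-fold above the lowest. Its log2 fold change was 0.03 (SE 0.16, edgeR adjusted p = 1.00), and its sign turned with RLE scaling and with DESeq2 (-0.071 in both), with no filter, and without set A replicate 3 or set B replicate 2.

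**Figure D1:**
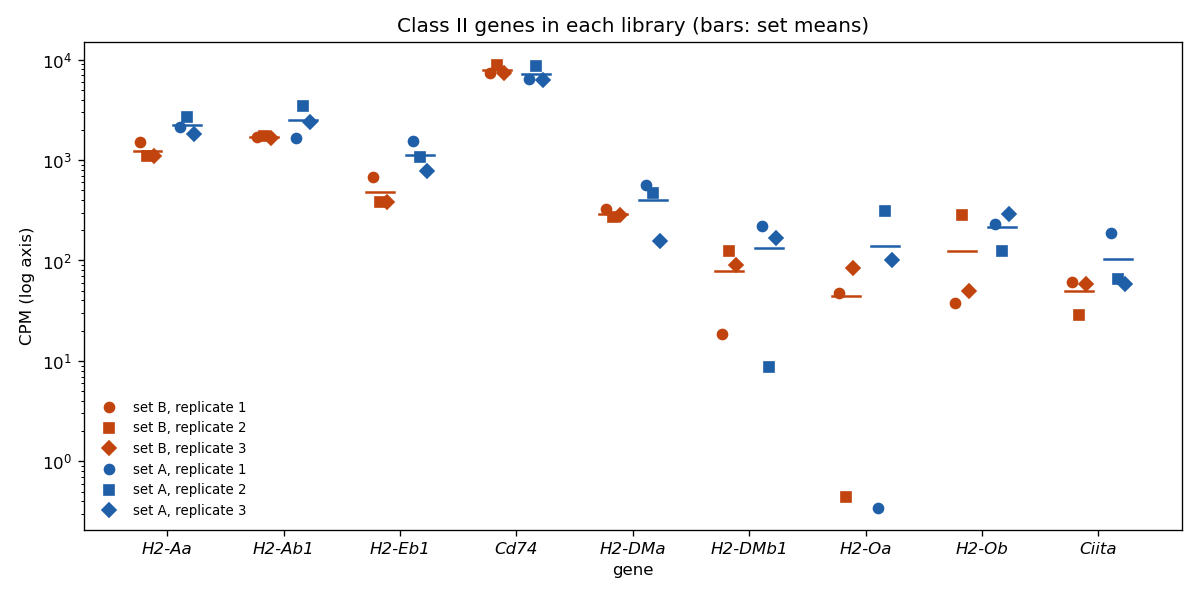
CPM of each of the 9 class II genes (log axis) in the 3 set B libraries (orange) and the 3 set A libraries (blue), with short bars at the set means. Cd74 lies between 6329 and 8915 CPM in all 6 libraries, H2-Aa and H2-Eb1 separate by set, and H2-Oa drops below 1 CPM in 1 library of each set.

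Over all genes tested edgeR called 0.0217% (2 of 9196, Mcpt8 and Prss34, both higher in set B), and it called 0 of the 9 class II genes in either direction. At an unadjusted p under 0.05 edgeR counted 3 of the 9 lower in set B, H2-Aa, H2-Eb1 and H2-Ab1, and 0 higher. At that p 6.36% of all tested genes were counted, 5.05% higher and 1.32% lower in set B, and 8.19% of those with a mean of at least 300 CPM were lower. DESeq2 called 2 of the 9 lower in set B, H2-Aa (log2 fold change -1.05, SE 0.26, adjusted p = 0.00138) and H2-Eb1 (-1.45, SE 0.38, adjusted p = 0.00281), and 0 higher. It called 7.16% of the 8314 genes it gave an adjusted p, 5.91% higher and 1.25% lower. Among genes with a mean of at least 300 CPM it called 5.9% lower. Limma-voom, which called 2.2% of all genes (2.12% higher and 0.0761% lower in set B), called 0 of the 9, with an adjusted p of 0.0731 for H2-Aa and 0.163 for H2-Eb1. It also left out the 2 genes that edgeR called, with a limma-voom adjusted p of 0.614 for Mcpt8 and 0.308 for Prss34. A gene that limma-voom did not call may thus still differ widely between the sets. The sets did not overlap in H2-Aa and H2-Eb1, both lower in set B, which is 2 of 9. Of all tested genes 14.1% did not overlap, 10.2% higher and 3.91% lower in set B. Of those with a mean of at least 300 CPM 15.8% did not overlap, and 7.62% were lower in set B.

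The fitted log2 fold change lay below 0 for 8 of the 9 genes, with a median of -0.92, beside 52.0% of all tested genes and a median of -0.06. Scaling by RLE shifted the median of all genes by -0.10 and that of the 9 to -1.03. Together the 9 genes took 1.17%, 1.29% and 1.10% of counts in set B and 1.30%, 1.68% and 1.21% in set A. The difference in mean share was -0.21 percentage points, and it was -0.068 without set A replicate 2, the library with the highest share.

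**Figure D2:**
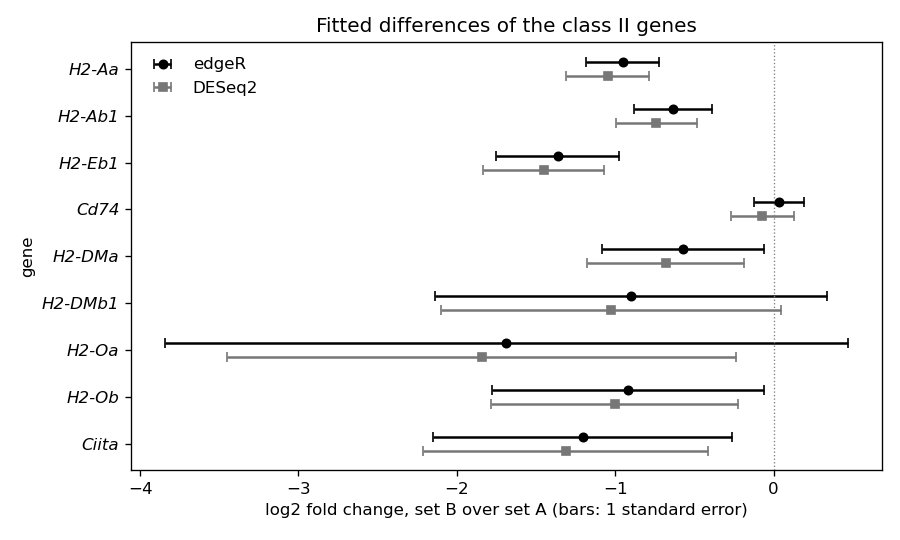
Fitted log2 fold change of each class II gene, set B over set A, by edgeR (circles) and DESeq2 (squares), with bars of 1 standard error. The bars of H2-Aa, H2-Ab1, H2-Eb1, H2-DMa, H2-Ob and Ciita stay below 0 with both tools, Cd74 sits at 0.03 by edgeR and -0.071 by DESeq2, and the H2-Oa bar is the widest, with an edgeR standard error of 2.16.

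The chains were then related to Cd74 within each library, a measure that depends neither on library size nor on gene length when one gene is followed across libraries. The summed CPM of H2-Aa, H2-Ab1 and H2-Eb1 was 0.529, 0.363 and 0.431 of that of Cd74 in set B, and 0.824, 0.836 and 0.789 of it in set A. All 3 set A libraries lay within 0.05 of each other and well above the highest set B library. Cd74 accounted for 62.7%, 69.3% and 66.3% of the counts of the 9 genes in set B, and for 49.7%, 51.3% and 52.3% in set A.

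Each presenting chain showed the same order when taken alone. The ratio of H2-Aa to Cd74 was 0.207, 0.124 and 0.150 in set B and 0.333, 0.313 and 0.288 in set A, a log2 difference of -0.99. The ratio of H2-Eb1 to Cd74 was 0.0922, 0.0425 and 0.0519 in set B and 0.237, 0.125 and 0.123 in set A, a log2 difference of -1.38. For H2-Ab1 the ratio was 0.230, 0.196 and 0.229 in set B and 0.254, 0.398 and 0.378 in set A, a log2 difference of -0.63. These 3 ratios did not overlap between the sets, and each reached p = 0.1 in a 2-sided exact permutation test, the smallest that 3 libraries against 3 allow (adjusted p = 0.267 over the 8 ratios tested). They shared the denominator, so the 3 results are not independent. The mean CPM of Cd74 was itself 1.10-fold higher in set B, which lowers any ratio to it there. How many of all tested genes would not overlap in a ratio to Cd74 was not counted. Whether the separation is particular to the presenting chains was thus not tested.

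The ratios of the other 5 genes to Cd74 overlapped between the sets. Their exact permutation p ran from 0.2 for H2-Ob to 0.9 for H2-DMb1 (adjusted p from 0.4 to 0.9). Without set A replicate 1 the log2 difference of the H2-DMa ratio was 0.022, against -0.39 with all libraries.

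**Figure D3:**
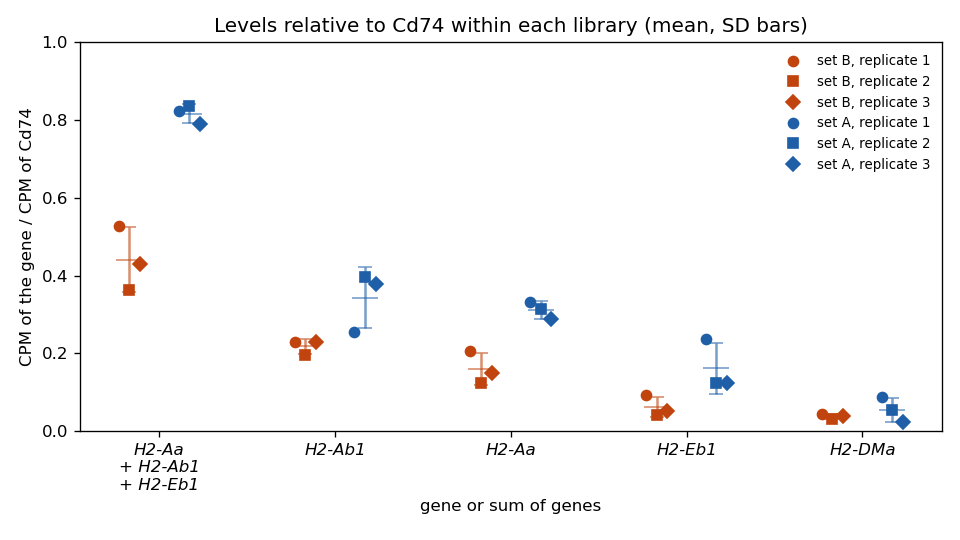
CPM of each gene, or of the 3 presenting chains summed, divided by the CPM of Cd74 in the same library, for set B (orange) and set A (blue), with crossbars at the mean and bars of 1 SD (n = 3). The summed ratio is 0.363 to 0.529 in set B and 0.789 to 0.836 in set A, and H2-DMa overlaps between the sets.

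Within the presenting chains the pairs did not keep one proportion. H2-Aa was at 0.898, 0.630 and 0.654 of the CPM of its partner H2-Ab1 in set B, and at 1.31, 0.788 and 0.761 of it in set A. H2-Eb1 was at 0.401, 0.216 and 0.226 of H2-Ab1 in set B and at 0.930, 0.313 and 0.324 in set A. Replicate 1 of each set had the highest value of both ratios in its set, and both ratios overlapped between the sets. Whether the shared replicate number pairs libraries is not stated.

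H2-M is a heterodimer of H2-DMa with a beta chain from H2-DMb1 or H2-DMb2. H2-DMa (ENSMUSG00000037649) was at 324, 272 and 282 CPM in set B and at 562, 468 and 158 CPM in set A. Set B lay inside the range of set A, whose replicates spanned 3.57-fold (log2 fold change -0.57, SE 0.51, edgeR adjusted p = 1.00). H2-DMb1 (ENSMUSG00000079547) was at 18.7, 125 and 90.1 CPM in set B and at 222, 8.70 and 168 CPM in set A, so that each set held 1 library far below the other 2 (log2 fold change -0.90, SE 1.24, edgeR adjusted p = 1.00). Single libraries set the size of both differences. For H2-DMa it was -0.18 without set A replicate 1 and -0.97 without set A replicate 3. For H2-DMb1 it was -0.20 without set A replicate 1, -0.44 without set B replicate 1 and -1.46 without set A replicate 2.

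H2-Eb2, a second I-E beta gene, had 0 counts in 5 libraries and 1777 counts (38.5 CPM) in set A replicate 3. H2-DMb2 was at 376, 411 and 245 CPM in set B and at 522, 194 and 281 CPM in set A. It stood above H2-DMb1 in all 6 libraries, and H2-DMb1 was at 0.0497, 0.304 and 0.368 of it in set B and at 0.425, 0.0449 and 0.597 of it in set A. The longest coding transcripts of these 2 genes in GENCODE M21 were identical at 94.7% of aligned bases. Of the 150-base windows of H2-DMb1, 5.74% occurred letter for letter in H2-DMb2, and 27.2% of its 50-base windows did, while the other 8 members shared none with any other gene. How the counting treated reads that fit both genes is not stated, so the split between H2-DMb1 and H2-DMb2 is uncertain. Summed, the 2 beta chains were at 1.22, 1.97 and 1.19 of H2-DMa in set B and at 1.32, 0.433 and 2.85 of it in set A.

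H2-O, the inhibitor of H2-M, needs both H2-Oa and H2-Ob, and the levels of the 2 chains did not follow each other. H2-Oa (ENSMUSG00000024334) was at 47.0, 0.440 and 84.2 CPM in set B and at 0.345, 313 and 101 CPM in set A. H2-Ob (ENSMUSG00000041538) was at 38.0, 285 and 49.7 CPM in set B and at 232, 125 and 288 CPM in set A. In set B replicate 2 and set A replicate 1 H2-Oa had only 26 and 19 counts while H2-Ob was at 285 and 232 CPM. In the other 4 libraries H2-Oa was at 1.24 and 1.70 of H2-Ob (set B replicates 1 and 3) and at 2.50 and 0.349 of it (set A replicates 2 and 3). Neither chain passed (log2 fold change -1.69, SE 2.16 for H2-Oa and -0.92, SE 0.86 for H2-Ob, edgeR adjusted p = 1.00 for both). For H2-Oa the log2 fold change was -0.17 without set A replicate 2, -1.09 without set B replicate 2 and -2.58 without set B replicate 3. For H2-Ob it was -0.50 without set B replicate 1, -0.49 without set B replicate 3 and -2.32 without set B replicate 2.

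**Figure D4:**
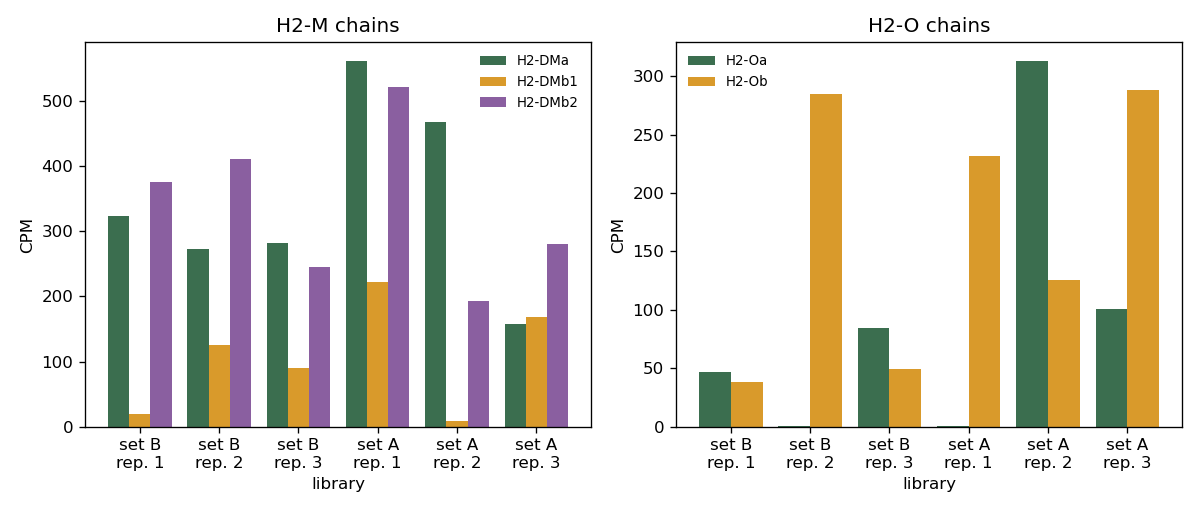
CPM of the H2-M chains (left) and the H2-O chains (right) in each library, set B before set A, as bars from 0. H2-DMb2 stands above H2-DMb1 in all 6 libraries, and the H2-Oa bar is at 0.440 and 0.345 CPM in set B replicate 2 and set A replicate 1, where H2-Ob reaches 285 and 232 CPM.

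Such gaps were common at this level of abundance. Among the 2437 tested genes with a mean of 50 to 200 CPM, the range that holds H2-DMb1, H2-Oa, H2-Ob and Ciita, 46.7% had at least 1 library under 1 CPM. Among the 733 genes of 200 to 1000 CPM, where H2-Eb1 and H2-DMa lie, 2.05% did, and among the 111 of 1000 to 10000 CPM, with H2-Aa, H2-Ab1 and Cd74, 0 did.

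Ciita (ENSMUSG00000022504), the transactivator, was at 61.7, 28.4 and 57.7 CPM in set B and at 186, 65.2 and 57.7 CPM in set A. Set A replicate 1 stood apart at 186 CPM, and the other 5 libraries lay between 28.4 and 65.2 CPM. The log2 fold change was -1.20 (SE 0.94, edgeR adjusted p = 1.00), and it was -0.37 without set A replicate 1. That library was also the highest in H2-Eb1, H2-DMa and H2-DMb1 among all 6. It was the lowest in H2-Ab1 and H2-Oa. Ciita was at 0.0159, 0.00877 and 0.0183 of the summed presenting chains in set B, and at 0.0349, 0.00905 and 0.0116 of them in set A.

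Levels were compared between genes per kilobase of the longest coding transcript in GENCODE M21, since the authors' annotation is not given. Cd74 was at 5573 ± 649 CPM per kilobase in set B and 5062 ± 912 in set A (SD, n = 3 each). H2-Ab1 came next, at 1407 ± 33.6 CPM per kilobase in set B and 2054 ± 740 in set A, and H2-Aa followed at 1098 ± 215 in set B and 1974 ± 394 in set A. By these means the 2 partners were within their spread in set A and apart by more than it in set B. In set B replicate 1 taken alone they were close, with H2-Ab1 at 1396 and H2-Aa at 1347. H2-Eb1 was at 287 ± 104 and H2-DMa at 146 ± 13.6 CPM per kilobase in set B, and they were at 675 ± 227 and 197 ± 106 in set A. H2-DMb1, H2-Ob and H2-Oa could not be ranked within their spread (40.3 to 55.5 CPM per kilobase in set B and 80.6 to 127 in set A). Ciita was lowest in both sets, at 8.20 ± 3.03 CPM per kilobase in set B and 17.1 ± 11.96 in set A. The distances between genes depend on the length used. Per kilobase of all exons of a gene merged, mean H2-Ab1 was at 970 in set A, H2-Aa at 586 and H2-Eb1 at 580. In set B they were at 664, 326 and 246. The closeness of H2-Aa to H2-Ab1 in set A thus holds for the transcript length only.

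Genes around this machinery were read from lists of its known parts. Of 7 class II promoter factors 5 were tested, edgeR called 0, and the median log2 fold change was 1.44. Creb1, which binds beside the X box and also responds to cyclic AMP, had 587, 3275 and 1322 counts in set B and 0, 2 and 4 counts in set A. The sets did not overlap (edgeR adjusted p = 0.508, DESeq2 adjusted p = 3.33e-06, limma-voom adjusted p = 0.0379). Rfxank, a subunit of the RFX complex, was at 68.9, 56.2 and 41.5 CPM in set B and at 0.109, 0 and 8.13 CPM in set A, also without overlap (edgeR adjusted p = 1.00). The DNA-binding subunit Rfx5 was at 0, 0 and 3.61 CPM in set B and at 0 in all 3 set A libraries, and was not tested. Nfyc, a CCAAT-binding subunit, overlapped between the sets. Creb1 and Rfxank had means of only 14.7 and 29.1 CPM over all libraries, as did Jak2 (20.6 CPM) and Cd274 (31.4 CPM) below. Even at 50 to 200 CPM, 46.7% of tested genes had a library under 1 CPM, and lower levels were not counted. Of all tested genes 14.1% did not overlap between the sets.

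Of 14 genes that act on the induction of Ciita, the inhibitor Socs1 among them, 12 were tested. EdgeR called 0, and the median log2 fold change was -0.51. Irf8, a transcription factor of B cells, monocytes and dendritic cells, was at 276, 183 and 188 CPM in set B and at 457, 487 and 219 CPM in set A (log2 fold change -0.97, SE 0.43, edgeR adjusted p = 0.871). Ifngr1, the ligand-binding chain of the interferon gamma receptor, was at 1025, 944 and 903 CPM in set B and at 1457, 1091 and 1122 CPM in set A, without overlap (log2 fold change -0.47, SE 0.21, edgeR adjusted p = 0.919). Jak2, a kinase of that receptor, was at 0.0804, 0.0676 and 8.02 CPM in set B and at 32.4, 69.3 and 14.0 CPM in set A, also without overlap (edgeR adjusted p = 1.00). The other receptor chain Ifngr2 and the kinase Jak1 overlapped between the sets.

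All 10 genes of endosomal processing were tested, 0 were called by edgeR, and the median was -0.25. Ctss, the protease that trims the invariant chain in B cells and dendritic cells, was at 3647, 4181 and 3652 CPM in set B and at 6636, 3288 and 3553 CPM in set A, with set A replicate 1 far above the rest (log2 fold change -0.36, SE 0.32, edgeR adjusted p = 1.00). Ctsd, another lysosomal protease (-0.51, SE 0.40), and Napsa, an aspartic protease (-0.33, SE 0.34), did not pass either. Of 8 genes of class II traffic 7 were tested with 0 called by edgeR and a median of -0.16, Cd9, Cd63 and Cd37 having the smallest p. Marchf1, the ubiquitin ligase that turns over surface class II, was at 0.382, 68.2 and 39.1 CPM in set B and at 152, 0.227 and 58.4 CPM in set A. Of 7 costimulation genes 6 were tested with 0 called and a median of -0.67. Icosl, Cd274 and Cd40 had the smallest p there, and their unadjusted p ran from 0.213 to 0.393 by edgeR. Cd274, which encodes the inhibitory ligand PD-L1, had 0, 10 and 1740 counts in set B and 2756, 3631 and 1948 counts in set A, and the sets did not overlap in CPM. Cd86, a costimulatory ligand of antigen-presenting cells, was at 0.322, 82.9 and 53.8 CPM in set B and at 9.09, 0.189 and 43.2 CPM in set A.

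Markers of cells that carry class II were present in all 6 libraries. All 15 B cell markers had counts in at least 1 library of each set, and their summed level was 5879 to 7169 CPM in set B and 5502 to 7680 CPM in set A. Cd79a, a chain of the B cell receptor complex, was at 1246, 1284 and 982 CPM in set B and at 569, 1011 and 1236 CPM in set A. Of the 14 B cell markers tested edgeR called 0, with 4 fitted values above 0 and 10 below, and Ighd, the delta heavy chain, had the smallest p (log2 fold change -1.27, SE 0.50, edgeR adjusted p = 0.696).

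Monocyte and macrophage markers summed to 26260 to 36075 CPM in set B and to 37261 to 44332 CPM in set A, without overlap. The gap came from Lyz2: the other 11 markers summed to 3604, 4772 and 6328 CPM in set B and to 4577, 5865 and 5246 CPM in set A, which overlapped. Of the 11 markers tested edgeR called 0 (1 lower at an unadjusted p under 0.05, DESeq2 called 1), with 5 fitted values above 0 and 6 below. Taken singly 2 of the 11, Lyz2 and Ly6c2, were lower in set B without overlap, beside 3.91% of all tested genes. Ly6c2 was at 116, 88.4 and 169 CPM in set B and at 175, 205 and 420 CPM in set A (edgeR adjusted p = 0.826). Lyz2, the macrophage lysozyme, made up most of the sum over all 12 markers, at 22656, 22600 and 29746 CPM in set B and at 39756, 32661 and 32015 CPM in set A (log2 fold change -0.58, SE 0.19, edgeR adjusted p = 0.523, DESeq2 adjusted p = 0.0153). Conventional dendritic cell markers summed to 167 to 215 CPM in set B and 91.0 to 502 CPM in set A, with Clec9a, Xcr1 and Zbtb46 at or near 0 in 5 or more libraries. Others were present: Ccr7 was at 153, 68.6 and 66.5 CPM in set B and at 0.218, 105 and 156 CPM in set A. Cd209a was at 61.0, 27.5 and 9.63 CPM in set B and at 0.181, 229 and 104 CPM in set A. Itgax was at 0.281, 53.4 and 94.8 CPM in set B and at 68.3, 0.113 and 172 CPM in set A. Flt3 was at 0 in set B and at 22.2, 0.113 and 66.1 CPM in set A. Plasmacytoid dendritic cell markers summed to 629 to 905 CPM in set B and 299 to 841 CPM in set A, mostly from Ly6d, which B cells express too, and Siglech was under 2 CPM in all 6. T cell markers summed to 282 to 543 CPM in set B and 809 to 1190 CPM in set A, neutrophil markers to 12431 to 23050 CPM in set B and 2400 to 9548 CPM in set A, and basophil markers to 1473 to 3209 CPM in set B and 39.7 to 387 CPM in set A. The part of any of these cell types in the class II values was not tested.

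**Figure D5:**
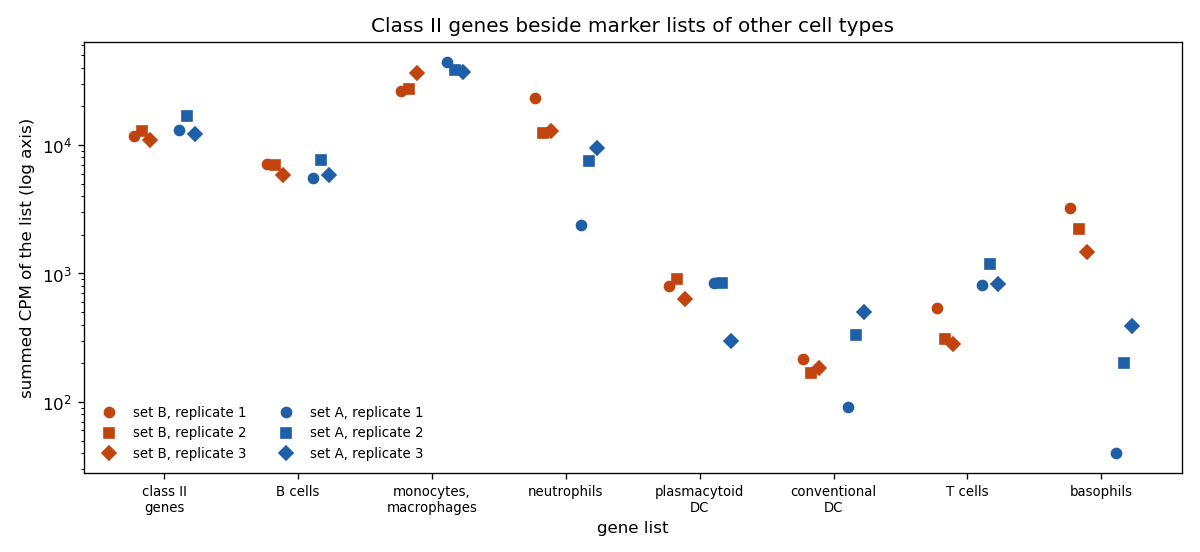
Summed CPM (log axis) of the 9 class II genes and of the marker lists of 7 cell types in each library, set B (orange) left of set A (blue). The B cell sums overlap between the sets, the T cell sum and the monocyte sum, the last through Lyz2 alone, are lower in set B without overlap, and the basophil and neutrophil sums are higher in set B without overlap.

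Other genes with a like pattern were ranked by Pearson's r of log2(CPM + 1) over the 6 libraries among 1791 tested genes with a mean of at least 100 CPM. For Cd74 they were Arhgap9 (r = 0.967), Jund (0.961), Capza2 (0.942), Plaur (0.939) and Ms4a6b (0.938). For H2-Ab1 they were Glipr1 (r = 0.984), Cdkn2aipnl (0.984), Ptprc (0.975), Arhgap45 (0.971) and Tapbp (0.970). With 6 points from libraries of differing make-up, values over 0.9 were met by 18 genes for Cd74 and 15 for H2-Ab1. Among the 9 themselves r was 0.92 between H2-Aa and H2-Eb1, 0.69 between H2-Aa and H2-Ab1 and -0.18 between H2-Aa and Cd74, as descriptions over the same 6 libraries.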

How the data were processed

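The authors deposited raw counts per Ensembl gene, 1 column per library, not normalized. Cutadapt 1.9, HISAT2 2.2.1 and DESeq2 are named, without their roles, per the submitters' processing notes. Counting program, genome build, annotation and strand setting: not given in the sources used here. Per the labels' protocols, paired reads of 150 bases came from Smart-seq2, which has no molecular identifiers, though the sample descriptions name 10x Genomics. Low counts were more often 4 (5211 values) than 3 (819) or 5 (660), so the number of fragments behind a count is not known.

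Symbols matched 55141 of 55401 identifiers. CPM is the count over the library total. Set B was compared with set A over all 6 libraries with edgeR 4.0.16 in R 4.3.3 (filterByExpr, TMM, robust glmQLFit, glmQLFTest, Benjamini-Hochberg over 9196 genes, threshold 0.05). SE is the absolute log2 fold change over the square root of F. Ratios were tested by exact permutation. Alternatives were RLE, no filter, library size alone, a stricter filter (10 counts throughout 1 set or the other, and a mean of 10 CPM), DESeq2 1.42.0, limma-voom (limma 3.58.1), a replicate block and each library left out. Fits were also run on simulated counts in which all genes had the same dispersion, unlike these data. That run does not tell how the tools perform here. The members and lists were chosen with earlier results of these data known. Named list genes are those past the threshold or up to 3 with the smallest p, beside all members. Marchf1, Cd86, Rfx5, H2-Eb2 and single cell type markers were named after their values were seen, and the monocyte sum without Lyz2 and the DESeq2 share over 300 CPM were added then.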

Additional observations from a re-analysis of the deposited data

How the results depend on the processing

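Of the 9 class II genes edgeR called 0 in every setting run, and DESeq2 called 2 lower in set B. Of all genes edgeR called 2 higher and 0 lower in set B, DESeq2 491 higher and 104 lower, and limma-voom 195 higher and 7 lower. With a replicate block edgeR called 0 (345 at an unadjusted p under 0.05), and with each library left out 0 to 1 higher (602 to 1030 at an unadjusted p under 0.05). The block changed no other call. Whether the shared numbers pair libraries is not stated. Deviations from the set means correlated at 0.010, -0.024 and 0.007 between same-numbered libraries, and not every library correlated best with its own number. Many tested genes were near 0 in single libraries, so these correlations cannot tell paired from unpaired libraries. The log2 fold change of H2-Aa stayed between -1.14 and -0.79 and that of H2-Eb1 between -1.71 and -1.01 in all settings, with adjusted p of 0.00138 to 0.998 for H2-Aa and 0.00281 to 0.998 for H2-Eb1. Cd74 was at -0.071 with RLE and with DESeq2, -0.0015 with no filter and -0.083 to 0.19 with a library left out. H2-DMb1 was at 0.16 by limma-voom. The median over all genes tested was 0.041 with library size alone, 0.28 with no filter, 0.48 with the block, 0.87 by limma-voom and -0.071 to 0.16 with a library left out, while that over the 9 stayed between -1.03 and -0.58. With a library left out the log2 ratio to Cd74 ran from -0.88 to 0.022 for H2-DMa, -1.99 to 0.55 for H2-DMb1 and -3.97 to 1.45 for H2-Oa, and kept its sign for H2-Aa, H2-Ab1, H2-Eb1, H2-Ob and Ciita. The cause of these changes was not tested. A count of 3 stood for 0.0469 to 0.0603 CPM in set B and 0.0544 to 0.0650 CPM in set A, and all 9 genes were above that in all 6 libraries.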
